A study of Mus musculus with 20 samples.

Results

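RIP-Seq of tagged Tet1 was compared with RIP-Seq of tagged Tet2 in mouse embryonic stem cells (ESCs), transcript by transcript, within the libraries whose deposited data carry the same number (called a library set here). The labels do not say what this number marks, and it equals the catalogue number that the methods give for the anti-Flag antibody. The comparison used 8 of the 20 libraries of the series: IP and input of Tet1 replicates 1 and 2, and IP and input of Tet2 replicates 3 and 4. The Tet1-KI and Tet2-KI lines were both made from WT ESCs by CRISPR-Cas9n knock-in of a Flag, HA and Twin-Strep tag at the C terminus of the endogenous protein, and clones carrying the tag were picked. They were grown on gelatin in serum with leukemia inhibitory factor, and no treatment or time course distinguished them. IP was made with an anti-Flag antibody from cytoplasmic extract, whereas the input was total RNA. The labels do not say whether replicates came from separate clones or cultures, so the p-values below measure the spread between these libraries only, which may be technical. Control IPs with IgG, described in the study's methods, were not analysed here. Of the 23284 genes in the files, 8356 had a mean TPM (a level scaled for transcript length and library total) of at least 5 over the 4 inputs. For each IP and the input of the same line and number, log2((IP TPM + 1)/(input TPM + 1)) was computed, and a transcript was taken as separated when both Tet1 pairs lay above, or both below, both Tet2 pairs. This rule left 1797 transcripts with both Tet1 pairs above (21.5%), 3625 with both Tet1 pairs below (43.4%) and 2934 whose pairs overlapped.

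Tet proteins are dioxygenases that convert 5-methylcytosine to 5-hydroxymethylcytosine, in DNA and also in RNA. Tet1 and Tet2 are the family members with substantial transcript levels in ESCs. Tet1 carries a CXXC zinc finger that binds CpG-rich DNA, whereas Tet2 lacks this domain and has been reported to reach RNA through an RNA-binding domain or through partner proteins. In RIP, an antibody recovers a protein with its associated RNA, and a ratio of IP over input above 0 on the log2 scale means that a transcript made up a larger share of the recovered RNA than of total RNA.

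The guides that placed the tag are shown because they define the 2 lines. They were read from the study's oligonucleotide list and matched to mm9 (NCBIM37), and capitals mark the PAM that follows each spacer in the genome. Tet1 guide 1 lies at chr10:62275278-62275297 (plus strand) and Tet1 guide 2 at chr10:62275249-62275268 (minus strand). Tet2 guide 3 lies at chr3:133129699-133129718 (plus strand) and Tet2 guide 4 at chr3:133129676-133129695 (minus strand).
Tet1 guide 1: ctttagacccaacgattgtaGGG
Tet1 guide 2: atgtaatgcctttgctaatgTGG
Tet2 guide 3: cgtcatacaaatgtgttgtaAGG
Tet2 guide 4: gccattaggccagaccaccaAGG
Both genes lie on the minus strand. Guides 1 and 3 overlap an annotated stop codon of their gene, guide 2 lies 12 bases from the nearest one and guide 4 lies 6 bases from it, beyond the coding sequence.

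The 8 libraries held between 22539260 and 26916281 expected counts, so that counting error was small for all but the rarest transcripts. All 10 ESC markers examined were present, with summed input levels of 17852 to 17872 TPM in Tet1 and 17599 to 18092 TPM in Tet2. The summed input level of 7 primitive endoderm markers was 48.6 to 51.5 TPM in Tet1 and 13.4 to 13.6 TPM in Tet2, and that of 7 fibroblast markers was 14.7 to 16.5 TPM in Tet1 and 42.5 to 43.1 TPM in Tet2. Only 3 of the 7 fibroblast markers reached a mean input of 1 TPM, and Thy1 alone averaged 22.1 TPM, so that sum mostly reflects Thy1. Of the 7 primitive endoderm markers, 6 reached 1 TPM. No marker of these lists was at 0 in every input, and the part of other cells in the results below was not tested. In bulk samples fewer cells of a type cannot be told apart from less RNA per cell. Replicates of one group differed by more than sampling noise (mean chi-square per gene 3.25 to 7.62, where noise alone gives 1) and were kept separate.

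Over the 8356 genes, the median log2(IP/input) was 0.04 and 0.09 in the Tet1 pairs and 0.18 and 0.11 in the Tet2 pairs. The means of these medians were 0.067 ± 0.0393 (SD, n = 2) for Tet1 and 0.149 ± 0.0502 (SD, n = 2) for Tet2. The difference of -0.0823 was not significant by an exact permutation test (two-sided p = 0.333, the smallest p that 2 pairs against 2 pairs allow). The ratio was above 0 for 54.7% and 60.3% of the genes in Tet1 and for 66.4% and 60.7% in Tet2. As a description over these genes, the ratios correlated at r = 0.86 between the Tet1 pairs and at r = 0.88 between the Tet2 pairs, and at r = 0.71 to 0.77 between a Tet1 pair and a Tet2 pair.

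Most separations were narrow. The median gap between the nearest pairs of the lines was 0.14 on the log2 scale where both Tet1 pairs lay above and 0.12 where both lay below. The gap reached 0.5 for 111 transcripts with Tet1 above and for 70 with Tet1 below, and it reached 1 for 6 and 10. After centring every pair on its own median, the counts became 2790 above (33.4%) and 2538 below (30.4%), so the excess on the Tet2 side depended on that scaling. Transcripts on opposite sides of input were fewer: 210 had both Tet1 pairs above their input and both Tet2 pairs below it, and 473 had the reverse. A further 647 of the transcripts with Tet1 above were above input in all 4 pairs, as were 1952 of those with Tet1 below, and 672 and 527 were below input in all 4.

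**Figure D1:**
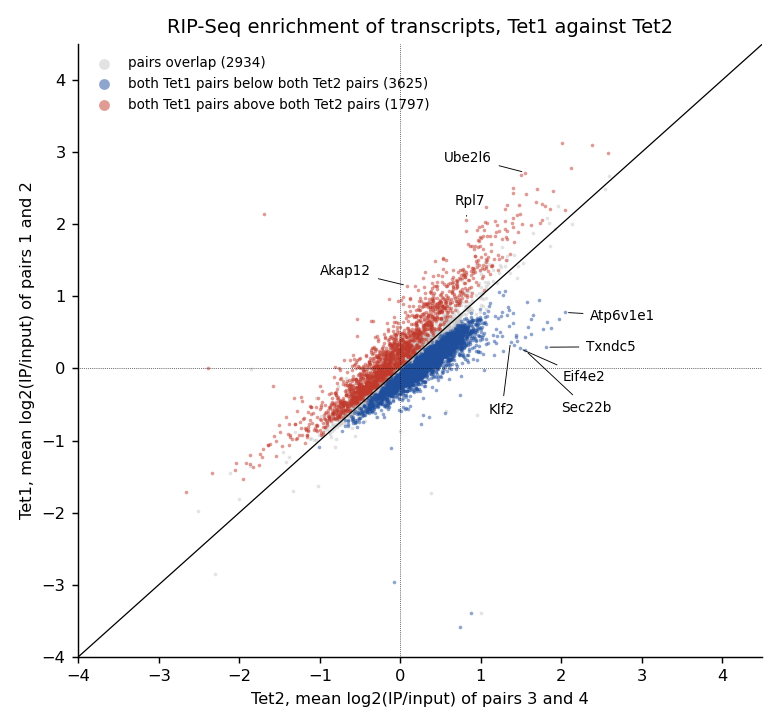
Mean log2(IP/input) of the 2 Tet1 pairs (vertical axis) against that of the 2 Tet2 pairs (horizontal axis), one point for each of the 8356 genes, with the line of equality. Red points are the 1797 transcripts with both Tet1 pairs above both Tet2 pairs, blue points the 3625 with both below and grey points the 2934 that overlap; most points lie close to the line, and 2 genes fall outside the axes.

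The difference in IP effect between the lines was then tested with edgeR's quasi-likelihood model on the expected counts of 13181 genes. It passed an adjusted p of 0.05 for 2262 genes (17.2%). The IP effect was higher in Tet1 for 1630 of them (12.4%) and higher in Tet2 for 632 (4.79%). The balance of the calls depended on the setting. It was 1221 against 1099 with library totals in place of TMM, which moved the median fitted difference over the genes tested from 0.03 to -0.03. It was 1444 against 918 with no filter on low counts, 1543 against 1382 without Tet1 replicate 1, and 418 against 458 with limma on log2(TPM + 1) over the genes of sufficient input. Over the 8327 genes of sufficient input that edgeR tested, the median difference was 0.01 with TMM, -0.05 with library totals and -0.08 on the TPM scale. Of the 1797 transcripts with both Tet1 pairs above, 1170 were called in that direction, and of the 3625 with both below, 574 were called. The number of calls also changed with the libraries in the fit: 337 genes passed when Tet2ΔRBD replicates 3 and 4 were added to the fit, and 0 passed in edgeR when all 20 libraries shared an estimate of spread, where 187 had an unadjusted p under 0.05. DESeq2 called 837 genes on the 8 libraries.

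Both sides of the ratio differed between the lines. The IP level differed between Tet1 and Tet2 for 63.8% of the genes tested and the input level for 60.1% (edgeR). Among the 1630 genes higher in Tet1, the IP level was higher in Tet1 for 1063 and the input level was lower in Tet1 for 642, with 130 showing both. Among the 632 genes higher in Tet2, the corresponding counts were 345, 285 and 24. A called difference in ratio implies a difference in IP, input or both, so these counts describe only how it was divided. The median fitted difference was 0.52 for the genes higher in Tet1 and -0.33 for those higher in Tet2.

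Transcripts recovered more, relative to input, with Tet1 included a ribosomal protein, a conjugating enzyme for ISG15 and membrane proteins of the ER, lysosome and mitochondria. The 12 called transcripts with the widest gap were Fam92a, Rpl7, Ube2l6, D7Ertd715e, Ttc35, Akap12, Bcap29, Gm20362, Dram2, Ube2v2, Apool and Rg9mtd1. They were picked for that gap, so their values are a description. Rpl7, a protein of the large ribosomal subunit (chr1:16091376-16094743, minus strand, mm9), had 13752 and 10007 TPM in Tet1 IP against 2969.5 and 2656 TPM in its inputs, and 6335 and 6328 TPM in Tet2 IP against 3624 and 3589.8 TPM in its inputs. Its IP level was higher in Tet1 and its input level lower, with no overlap between the lines on either side. The fitted difference was 1.34 ± 0.10 (SE; edgeR adjusted p = 4.1e-07). Ribosomal protein genes have many near-identical processed copies in the genome, so the assignment of their reads is uncertain.

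Akap12, a scaffold that anchors protein kinase A (chr10:5987073-6080212, minus strand), differed in IP alone. Its level was 192 and 172 TPM in Tet1 IP and 81.8 and 76.7 TPM in Tet2 IP, whereas the inputs held 87.1 and 75.9 TPM in Tet1 and 73.2 and 76.3 TPM in Tet2. The inputs of the lines overlapped and the IPs did not. The fitted difference was 1.17 ± 0.07 (edgeR adjusted p = 5.3e-08). Ube2l6, the E2 enzyme for the ubiquitin-like protein ISG15 (chr2:84638985-84650492, plus strand), had 88.2 and 80.1 TPM in Tet1 IP against 39.2 and 39.5 TPM in Tet2 IP, with inputs of 12.6 and 11.3 TPM in Tet1 and 11.9 and 13.7 TPM in Tet2. Here too only the IP separated the lines, although both lines recovered the transcript above input.

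Other members of the group differed mainly in input. Bcap29, an ER membrane protein, had 25.6 and 19.9 TPM in Tet1 IP and 20.1 and 19.6 TPM in Tet2 IP, which overlapped, against 8.17 and 6.22 TPM in Tet1 input and 14.01 and 12.9 TPM in Tet2 input. Dram2, a lysosomal membrane protein linked to autophagy, likewise had 8.76 and 7.0 TPM in Tet1 input and 13.4 and 13.4 TPM in Tet2 input. Of the 12, the IP level was significantly higher in Tet1 for 9 and the input level significantly lower in Tet1 for 9, with both for 6. They were picked for their ratio, so a higher IP or a lower input in Tet1 largely follows from that choice. Fam92a, which encodes a BAR-domain protein, had ratios of 2.69 and 2.66 in Tet1 and 1.51 and 1.48 in Tet2, and Ttc35, a subunit of the ER membrane protein complex, had 1.51 and 1.47 against 0.39 and 0.48. Apool, of the mitochondrial cristae organising complex, had 1.94 and 1.97 against 0.93 and 1.03. Rg9mtd1, a mitochondrial tRNA methyltransferase, had 1.86 and 2.09 against 1.01 and 1.02.

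The abundant ER chaperone transcripts Hsp90b1 and Hspa5 were also recovered more with Tet1. Hsp90b1 had 384 and 350.3 TPM in Tet1 IP and 108 and 84.9 TPM in Tet1 input, compared with 292 and 284 TPM in Tet2 IP and 140.4 and 138 TPM in Tet2 input. Its ratios were 1.82 and 2.03 in Tet1 and 1.05 and 1.04 in Tet2, so both lines held it well above input and Tet1 the more so (fitted difference 0.98 ± 0.08, edgeR adjusted p = 4.1e-07). Hspa5, also known as BiP, had ratios of 1.61 and 2.05 in Tet1 and 1.11 and 1.05 in Tet2.

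Transcripts recovered more with Tet2 were led by Txndc5, Fam160b2, Atp6v1e1, Dbn1, Eif4e2, Tubb3, Maea, Sec22b, Akr1a1, Eif4ebp1, Ssna1 and Klf2, picked in the same way. Txndc5, a protein disulfide isomerase of the ER (chr13:38591948-38620693, minus strand), had 191 and 195 TPM in Tet1 IP and 513 and 534 TPM in Tet2 IP. Its inputs held 155 and 159 TPM in Tet1 and 151 and 145 TPM in Tet2. The inputs of the lines were close together and the Tet2 IPs were the highest of the 8 libraries. The fitted difference was -1.43 ± 0.08 (edgeR adjusted p = 2.4e-08), the widest gap of this group at 1.46.

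Eif4e2 and Eif4ebp1 both bear on cap-dependent translation, as a cap-binding protein that represses it and as an inhibitor of the cap-binding initiation factor. Eif4e2 (chr1:89110489-89137063, plus strand) had 168 and 159 TPM in Tet1 IP and 607 and 682 TPM in Tet2 IP, with inputs of 139 and 130.2 TPM in Tet1 and 229.5 and 229.2 TPM in Tet2. Its level was higher in Tet2 in input and IP alike, and more so in IP (fitted difference -1.05 ± 0.08, edgeR adjusted p = 5.6e-07). Eif4ebp1 had ratios of 0.37 and 0.27 in Tet1 and 1.36 and 1.47 in Tet2. Klf2, a transcription factor of naive pluripotency (chr8:74842932-74845555, plus strand), had 167 and 173 TPM in Tet1 IP and 289 and 310.3 TPM in Tet2 IP, with inputs of 127 and 135 TPM in Tet1 and 112 and 119 TPM in Tet2. The IP levels did not overlap, and the fitted difference was -0.91 ± 0.08 (edgeR adjusted p = 6.2e-07).

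Membrane traffic and the cytoskeleton were represented as well. Sec22b, a SNARE of ER to Golgi transport (chr3:97705113-97727199, plus strand), had 62.7 and 51.7 TPM in Tet1 IP and 147 and 154 TPM in Tet2 IP, with inputs of 47.7 and 47.8 TPM in Tet1 and 51.8 and 49.2 TPM in Tet2, whose difference was not called (edgeR adjusted p = 0.073). Atp6v1e1, a subunit of the vacuolar proton pump, differed on both sides: 212 and 196 TPM in Tet1 IP and 287 and 299 TPM in Tet2 IP, against 119 and 119 TPM in Tet1 input and 70.0 and 70.2 TPM in Tet2 input. Tubb3, a beta-tubulin of neurons, had ratios of 0.65 and 0.44 in Tet1 and 1.78 and 1.76 in Tet2, and Dbn1, the actin-binding protein drebrin, had 0.47 and 0.65 against 1.92 and 1.81. Maea, part of a ubiquitin ligase complex, had 0.71 and 0.58 against 1.81 and 1.85. The IP level was significantly higher in Tet2 for all 12 of these genes and the input level significantly lower in Tet2 for 5. These counts are a description, because genes picked for a higher ratio in Tet2 tend to have a higher IP or a lower input there.

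**Figure D2:**
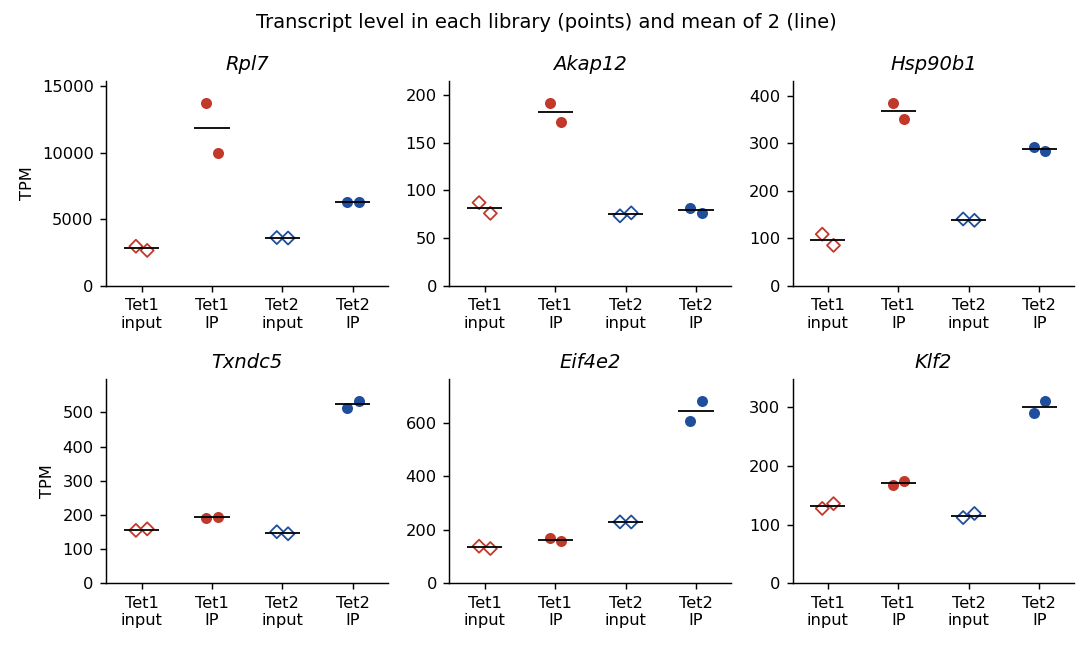
TPM (vertical axis, starting at 0) in each of the 8 libraries for 6 transcripts, with open diamonds for input, filled circles for IP and a line at the mean of 2 libraries. Rpl7, Akap12 and Hsp90b1 are highest in Tet1 IP, and Txndc5, Eif4e2 and Klf2 are highest in Tet2 IP, where Txndc5 holds 513 and 534 TPM.

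Ratios of the same transcripts in libraries that the comparison did not use are given side by side with those above. Tet2ΔRBD is a Tet2-KI line in which the tagged Tet2 lacks its RNA-binding domain, and its replicates 3 and 4 belong to the same library set. For the 12 transcripts recovered more with Tet2, all Tet2 ratios of replicates 3 and 4 were above 1 and all Tet1 ratios were below 1, and in Tet2ΔRBD both ratios were below 1 for 10 and above 1 for 2. Over the 8356 genes, both Tet2ΔRBD ratios were below 1 for 96.2% and above 1 for 1.07%, so the count of 10 says nothing particular about these transcripts. Txndc5 had 0.44 and 0.48 in Tet2ΔRBD, Eif4e2 0.27 and 0.25, Klf2 0.27 and 0.24, and Sec22b -0.32 and -0.31. For all 10, both values were closer to those of Tet1 than to those of Tet2. The transcripts were picked for Tet2 ratios far above those of Tet1, so this closeness is a description only. A part of the RNA-binding domain in it was not tested. The exceptions were Fam160b2, at 2.12 and 1.97, and Dbn1, at 1.55 and 1.98, which were closer to Tet2. In Tet2 replicates 1 and 2, of other sets, both ratios were above 1 for 7 of the 12 and for none were both below 1 (5.06% and 79.8% of the 8356 genes), as with 2.10 and 1.5 for Txndc5, 2.53 and 1.71 for Sec22b and 3.47 and 3.10 for Atp6v1e1. Eif4ebp1 was less even, with 1.5 and 0.15.

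The transcripts recovered more with Tet1 also varied in these libraries. In Tet2ΔRBD replicates 3 and 4, both ratios were below 1 for 9 of the 12 and on both sides of 1 for 3, from -0.56 to 1.95, beside 96.2% of the 8356 genes with both below 1, and the replicates often differed from each other, as with 1.95 and 0.48 for Fam92a. In Tet2 replicates 1 and 2, both ratios were above 1 for 6 and both below 1 for 3 (5.06% and 79.8% of the 8356 genes). For the transcripts recovered more with Tet2 the first count was 7 of 12, so high ratios there were not particular to that group. Akap12 had 1.59 and 4.79 there, above its Tet1 ratios of 1.13 and 1.17, and Ube2l6 had 3.15 and 2.12 beside 2.72 and 2.72 in Tet1. For Rpl7 (0.50 and 0.93) and Dram2 (0.01 and -0.34) the values in these Tet2 pairs were below those in Tet1.

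**Figure D3:**
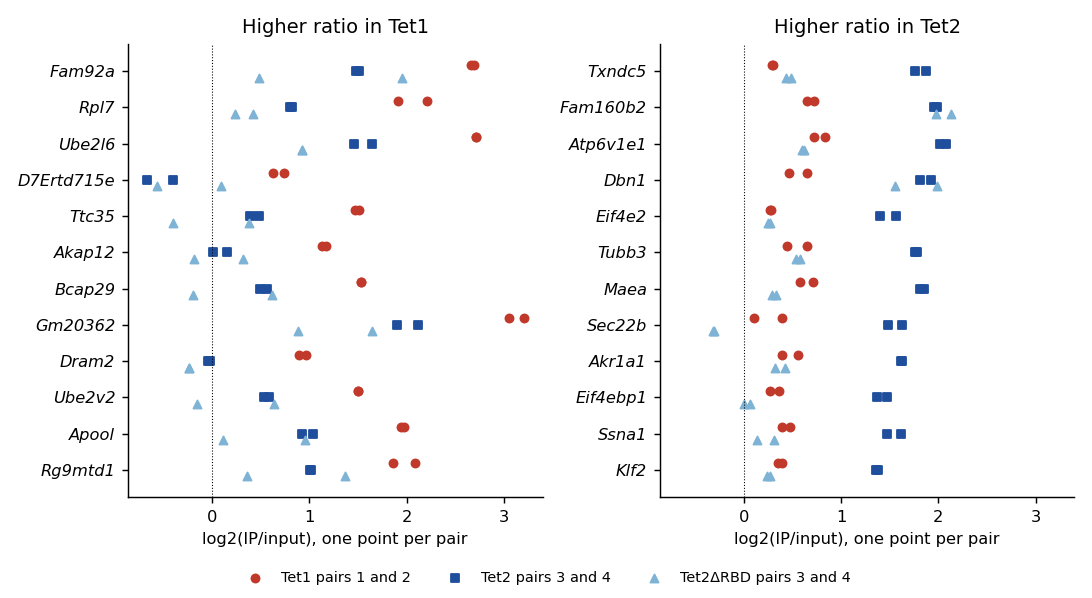
log2(IP/input) of each pair (horizontal axis) for the 12 transcripts with the widest gap in each direction, with circles for Tet1, squares for Tet2 and triangles for Tet2ΔRBD. On the right, Tet2ΔRBD lies closer to Tet1 than to Tet2 for all transcripts but Fam160b2 and Dbn1. On the left its 2 pairs are often far apart. The transcripts were picked for the gap between Tet1 and Tet2, so the place of Tet2ΔRBD is a description only.

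Base composition moved with the difference between the lines. A coding transcript of the gencode vM1 annotation of mm9 was matched by symbol for 8097 of the 8356 genes (96.9%). The median GC content was 45.1% for transcripts with both Tet1 pairs above, 53.8% for those with both below and 50.8% for those that overlapped. In the lowest of 10 bins of GC content (up to 43.2%), 67.5% had both Tet1 pairs above and 7.28% both below, whereas in bin 8 (54.9% to 56.6%) 5.93% were above and 66.9% below. Across genes, GC content and the Tet1 minus Tet2 difference in ratio correlated at r = -0.51. Within pairs, the Pearson correlation of GC content with the ratio was -0.026 and -0.035 in Tet1. It was 0.29 and 0.23 in Tet2 replicates 3 and 4. By rank (Spearman) the values were 0.082 and 0.074 in Tet1 and 0.32 and 0.27 in those Tet2 replicates. The Pearson correlation also differed between replicates outside this comparison. It was 0.28 and 0.52 in Tet2ΔRBD replicates 3 and 4 and 0.02 and 0.07 in Tet2 replicates 1 and 2. The part of GC content in the differences above was not tested. The median transcript length was 2468 bases where Tet1 was above and 2703 bases where it was below, beside 2678 bases over all matched genes, and length correlated with the difference at r = -0.03.

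With every pair centred within 20 bins of GC content, an alternative chosen after seeing the data, 2545 transcripts had both Tet1 pairs above and 2153 both below, and 250 of these lay on the other side without centring. The transcripts of the widest gaps kept their direction: the centred difference was 0.69 to 1.26 for the 10 matched ones recovered more with Tet1 and -1.43 to -0.86 for the 11 matched ones recovered more with Tet2. They were picked for that gap, so keeping the direction is a description only. Windows of 60 coding bases whose GC content is nearest to that of the whole transcript are shown for Dram2, of low GC content and recovered more with Tet1, and for Tubb3 and Klf2, of high GC content and recovered more with Tet2, with G and C in capitals.
Dram2: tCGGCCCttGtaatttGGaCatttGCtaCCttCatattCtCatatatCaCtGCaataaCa
Tubb3: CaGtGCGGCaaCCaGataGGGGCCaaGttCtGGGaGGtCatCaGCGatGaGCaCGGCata
Klf2: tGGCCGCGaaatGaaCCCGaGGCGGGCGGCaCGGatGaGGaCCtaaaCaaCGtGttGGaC
They are bases 37 to 96, 31 to 90 and 76 to 135 of the coding sequences and hold 22, 35 and 37 G or C bases. Ube2v2 (chr16:15552770-15594617, minus strand), an inactive partner of a ubiquitin-conjugating enzyme, had ratios of 1.5 and 1.5 in Tet1 and 0.59 and 0.54 in Tet2. Dram2 lies at chr3:106350611-106377763 (plus strand) and Tubb3 at chr8:125935324-125945915 (plus strand). Sec22b, with 43.3% GC, Akap12, with 52.2%, and Ube2l6, with 50.3%, went against the trend. Each fell in a bin, of the 10 bins of GC content, where the other direction was more common.

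**Figure D4:**
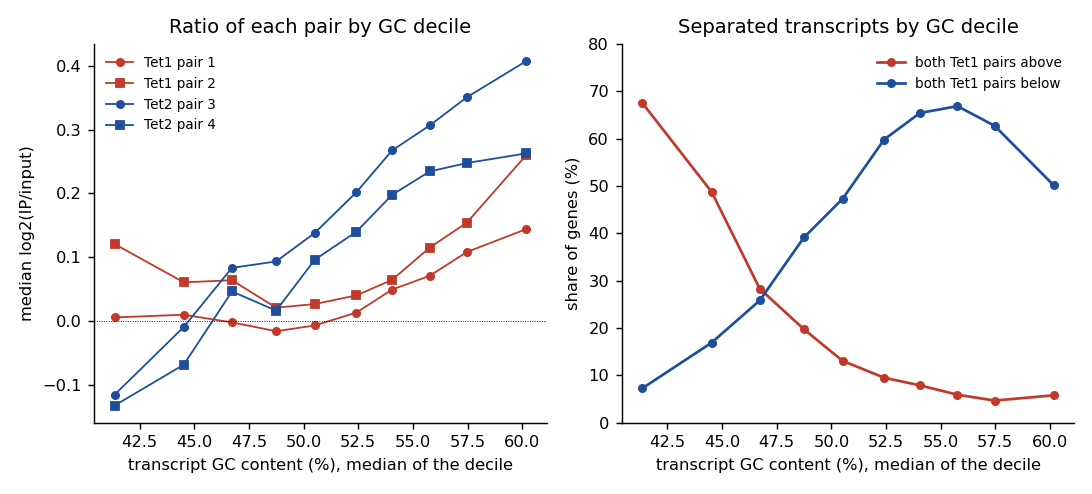
Left, median log2(IP/input) of each pair over 10 bins of genes ordered by transcript GC content. Right, the share of genes in each bin with both Tet1 pairs above (red) or below (blue) both Tet2 pairs. The red share goes from 67.5% in the lowest bin to 5.80% in the highest, and the ratios of the Tet2 pairs rise more steeply with GC content than those of the Tet1 pairs.

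Gene lists were read against the shares of all genes tested, 12.4% higher in Tet1 and 4.79% higher in Tet2, and their medians against the fitted median of 0.03. Members named for a count of 5 or fewer were chosen after their values were seen. With library totals in place of TMM, 9 lists that follow had more calls in Tet2 than in Tet1 and not so with TMM. The calls in Tet1 and in Tet2 were then 6 and 7 for pluripotency regulators, 4 and 6 for Polycomb, BAF and NuRD genes, 8 and 9 for proteasome subunits, 6 and 7 for aminoacyl-tRNA synthetases, and 7 and 8 for ER chaperones. They were 3 and 4 for vesicle coats and SNAREs, 3 and 5 for Nodal, BMP and LIF signalling, 0 and 1 for Tet and DNA methylation genes, and 0 and 1 for matrix genes. Among 75 spliceosome, SR and hnRNP genes, 26 were higher in Tet1 and 1, Srrm1, in Tet2 (median fitted difference 0.13), including Hnrnpu (0.50). The median GC content of this list, at 48.7%, was below that of all genes (51.4%). Of 19 snoRNA host transcripts, 8 were higher in Tet1 and none in Tet2 (median 0.21), although the ratios of Snhg3, Snhg4 and Snhg7 were below 0 in both lines. Snhg3 had -0.93 and -1.02 in Tet1 and -1.29 and -1.39 in Tet2. Ncl, which encodes nucleolin and hosts snoRNAs in its introns, had 0.86 and 1.01 against 0.55 and 0.57. Of the 11 long noncoding RNAs tested, the nuclear transcripts Malat1 (1.08 ± 0.15) and Neat1 (0.86 ± 0.10) and also Tug1 (1.00 ± 0.10) were higher in Tet1 by edgeR and the other 8 were not called. Malat1 had only 2.15 to 5.64 TPM in the inputs.

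Genes of translation were called in both directions. Of 68 genes listed as translation factors, 21 were higher in Tet1, such as the initiation factor subunits Eif3e (1.09 ± 0.10) and Eif3j (0.81 ± 0.10). Another 5 were higher in Tet2 (Eif4e2, Eif4ebp1, Eif4a3, Eif2c1 and Eif2b2). Of these, Eif2c1 encodes an Argonaute protein and Eif4a3 a part of the exon junction complex, so neither is an initiation or elongation factor. Eif3e had ratios of 1.28 and 1.76 in Tet1 and 0.58 and 0.48 in Tet2. Of 86 cytosolic ribosomal protein genes, 17 were higher in Tet1 and 4 in Tet2 (Rpl13a, Rpl38, Rpl34 and Rps4y2), with a median of 0.13, and Rpl7 and Rps3a (0.54) had the largest differences. Of 77 mitochondrial ribosomal protein genes, 15 were higher in Tet1 and none in Tet2, but 10 and 6 with library totals. The difference was largest for Mrps22, with ratios of 0.76 and 1.17 in Tet1 and -0.20 and -0.07 in Tet2. Of 23 aminoacyl-tRNA synthetase genes, 6 were higher in Tet1, with Dars (0.65) first, and 2 in Tet2 (Wars and Qars). Of 60 ribosome biogenesis factors, 10 were higher in Tet1, with Cebpz (0.92) and Gnl3 (0.78) first, and 2 were higher in Tet2 (Bms1 and Polr1c). Cebpz was strongly recovered in both lines, with ratios of 3.07 and 3.22 in Tet1 and 2.49 and 2.28 in Tet2.

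Energy metabolism and protein turnover also held members on both sides. Of 83 oxidative phosphorylation genes, 17 were higher in Tet1 and 6 in Tet2, or 13 and 12 with library totals. The complex I subunits Ndufc2 (-1.02 ± 0.10) and Ndufb4 (-0.93 ± 0.09) were above input in Tet2, with ratios of 0.64 and 0.84 and of 0.17 and 0.34, and below input in Tet1, with -0.25 and -0.48 and with -0.79 and -0.74. Uqcrfs1, the iron-sulfur subunit of complex III, was higher in Tet1 (0.58 ± 0.09). Of 47 proteasome genes, 9 were higher in Tet1, such as Psmc6 (0.96), and 6 in Tet2. Of 48 ER chaperone and folding genes, 8 were higher in Tet1 and 4 in Tet2 (Txndc5, Herpud1, Dad1 and Edem1), with Hsp90b1 and Txndc5 at either end. Of 41 genes of vesicle coats, SNAREs and the Golgi, 6 were higher in Tet1, among them Copb1 (0.90), and 3 in Tet2 (Sec22b, Ykt6 and Copz1).

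Membrane transporters were called more often on the Tet2 side. Of 211 solute carriers, 5 were higher in Tet1 (Slc7a14, Slc25a14, Slc39a10, Slc25a36 and Slc31a1) and 16 in Tet2 (median -0.06). Both Tet1 pairs lay below both Tet2 pairs for 76 of the 129 with sufficient input (58.9%, beside 43.4% of all genes). The median GC content of this list, at 53.0%, was above that of all genes (51.4%). Slc25a38, a mitochondrial glycine carrier, had ratios of 0.20 and 0.29 in Tet1 and 1.24 and 1.31 in Tet2. Of 333 Zfp zinc finger genes, 48 were higher in Tet1 (14.4%, close to the share of all genes) and 2 in Tet2 (Zfp839 and Zfp740), with a median of 0.21. Of the 108 that reached the input level of 5 TPM, 25 had both Tet1 pairs above and 26 both below, and their median difference in ratio was 0.01, so these showed no lean to either line. Of 45 replication genes, 13 were higher in Tet1, such as Orc4 (0.89), and 2 in Tet2 (Pold2 and Lig1), and of 34 kinesins and mitotic motors 6 were higher in Tet1, with Kif18a first, and 1, Kif3c, in Tet2.

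Pluripotency regulators were split. Of 32, 8 were higher in Tet1, including Zfp281 (0.68 ± 0.10), Dppa3 (0.68 ± 0.20) and Nr5a2 (0.66 ± 0.17). A further 3 were higher in Tet2 (Klf2, Esrrb and Tfcp2l1). For Zfp281 and Nr5a2 the IP level itself was lower in Tet1 (-0.51 and -0.40), and the input level lower still (-1.19 and -1.05). Dppa3 was below input in all 4 pairs, and Nr5a2 had a mean input of only 3.67 TPM. With 12 libraries in the fit, 0 of the 32 were higher in Tet1 and 1 in Tet2. Of 31 genes of Nodal, BMP and LIF signalling, 4 were higher in Tet1 (Bmpr1a, Jak1, Lifr and Bmp4), with the BMP receptor Bmpr1a at 0.42. The 4 higher in Tet2 were the kinase gene Pim3 (-0.45), the inhibitor of differentiation Id3 (-0.57), Fgfr1 and Socs3. Of 28 immediate early and Myc genes, 1 was higher in Tet1 (Junb) and 2 in Tet2 (Id3 and Gadd45a). Of 42 Polycomb, BAF and NuRD genes, 7 were higher in Tet1 and 2 in Tet2 (Smarcd1 and Dpf2). The 7 included the PRC2 accessory gene Mtf2 (0.71) and the PRC1 ubiquitin ligase Rnf2 (0.47). However, Rnf2 was below input in all 4 pairs. Its IP level was not called (-0.11), and its input level was lower in Tet1 (-0.57). Of 43 collagen, laminin and matrix genes, 2 were higher in Tet1 (Col1a1 and Col4a1) and none in Tet2. Of 14 replication-dependent histone genes tested, 2 were higher in Tet1 (Hist1h1c and Hist1h2bc) and none in Tet2. Of 14 genes of the 2C-like state, 1, Eif1a, was higher in Tet1. Its members Gm4027 and Zscan4f were mostly listed in Tet1 IP: Zscan4f had 16.9 and 19.2 TPM there, 1.60 and 1.73 TPM in Tet1 input, 0.33 and 0.46 TPM in Tet2 IP and was listed at 0 in both Tet2 inputs. These gene copies are near-identical, so how their reads were divided is uncertain, and no fold is given.

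**Figure D5:**
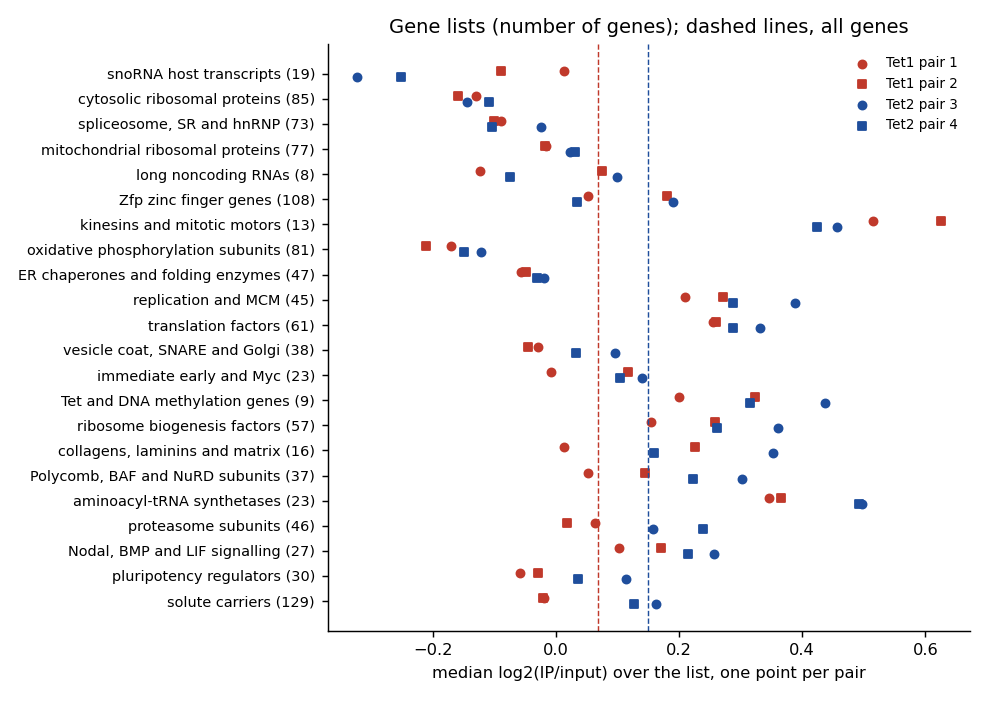
Median log2(IP/input) over each gene list with at least 8 genes at an input TPM of 5 or more (horizontal axis), one point per pair, with red for Tet1 and blue for Tet2, the number of genes in parentheses and dashed lines at the means of the pair medians over all genes (0.067 for Tet1 and 0.149 for Tet2). snoRNA hosts lie highest in Tet1 relative to Tet2 and solute carriers lowest.

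The transcripts of the tagged genes themselves differed little in ratio. Tet1 had 23.8 and 23.3 TPM in Tet1 IP and 17.2 and 13.6 TPM in Tet1 input, and 11.9 and 11.1 TPM in Tet2 IP and 8.54 and 8.75 TPM in Tet2 input. It was higher in the Tet1-KI line on both sides without overlap, and its ratios were 0.44 and 0.74 in Tet1 against 0.44 and 0.32 in Tet2. The fitted difference of 0.30 ± 0.08 passed by edgeR (adjusted p = 0.019) but not without Tet1 replicate 2 (0.18, adjusted p = 0.148) nor in 9 further settings of the 13 tried. Tet2 had 9.66 and 9.47 TPM in Tet1 IP and 10.2 and 10.3 TPM in Tet2 IP, with overlapping ratios of 0.46 and 0.81 in Tet1 and 0.58 and 0.48 in Tet2. Its difference did not pass (0.21 ± 0.10, edgeR adjusted p = 0.16), although it did without Tet1 replicate 1 (0.33, adjusted p = 0.0104). Tet3 had 0.81 to 1.55 TPM in the 8 libraries and was not called. Of 14 Tet and DNA methylation genes, 1 was higher in Tet1 (Tet1 itself) and 1 in Tet2 (Dnmt3l).

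Of the 8 transcripts listed because the study named them, 7 had sufficient input. Both Tet1 pairs lay above for 2 and below for 2 (28.6% each, beside 21.5% and 43.4% of all genes), and 3 overlapped. The gap was 0.22 for Dab1, with Tet1 above, and 0.12 for Jarid2, with Tet1 below. Eed, a core PRC2 subunit, was above input in all 4 pairs, with 0.73 and 0.89 in Tet1 and 0.70 and 0.66 in Tet2. Of the 8 listed, it was the 1 called. Its fitted difference of 0.22 ± 0.07 passed narrowly by edgeR (adjusted p = 0.048) and in none of the 13 other settings. Jarid2, a PRC2 partner, had 0.11 and 0.19 in Tet1 and 0.34 and 0.31 in Tet2 and was not called (-0.09 ± 0.07, adjusted p = 0.46). Smarcc1, Paf1, Mbd3, Dab1, Cdh4 and Mdc1 were not called, with fitted differences from -0.40 (Cdh4) to 0.21 (Dab1).

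Members nearest the limits show how fine the separation is. Stam, just inside, had -0.21 and 0.06 in Tet1 and -0.36 and -0.21 in Tet2, and Timm13, just outside, had 0.25 and 0.31 in Tet1 and 0.31 and 0.32 in Tet2. The input limit of 5 TPM fell between H2-T24 and Spg11. The widest gap of all was that of Mir684-1, at 8.07, which was listed at 0 in both Tet1 inputs and at 194 and 315 TPM in the Tet2 inputs, with 279 and 152 TPM in Tet1 IP and 110 and 168 TPM in Tet2 IP. Its mean effective length was 17.4 bases, and entries this short take few counts to reach a high TPM, so entries under 200 bases were not ranked among the widest gaps.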

How the data were processed

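RIP-Seq libraries of mouse ESCs were analysed from the deposited gene tables. The authors removed rRNA and tRNA reads, aligned the rest with RSEM to mm9 with the RefSeq transcriptome, and deposited expected counts, which are not normalized, and TPM values to which a pseudocount of 1 had been added. That 1 was subtracted to give TPM here and added again inside the log2 ratios. FPKM values were not used. Groups and replicate numbers came from the sample titles, and the library set from the numbering of the deposited data. The members and gene lists were chosen with earlier results of these data known.

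Expected counts were rounded and tested with edgeR 4.0.16 in R 4.3.3 (TMM, quasi-likelihood, genes with 1 CPM in at least 2 of the 8 libraries, a term for each IP and input pair, Benjamini-Hochberg adjustment). The contrast was the Tet1 IP effect minus the Tet2 IP effect. IP and input levels were tested on group means. SE is the fitted value divided by the square root of F. The test was also run on simulated counts with a fixed spread and no differences between pairs. These libraries differ from that setting, so the run does not vouch for the calls here. Alternatives used DESeq2 1.42.0, limma 3.58.1, other scalings, filters and pseudocounts, more libraries, no pair term and leaving out each pair. Short entries and multicopy genes are uncertain.

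Named transcripts were the 12 called ones with the widest gap in each direction (mean effective length of at least 200 bases), the Tet genes, transcripts the study names, up to 4 of each of 26 lists by size of the fitted difference, and those nearest the limits. Symbols were matched to gencode vM1 of NCBIM37. D7Ertd715e, Gm20362 and Akr1a1 were not matched and have no position here. The list of mitochondrially encoded genes had no member in the files.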

Additional observations from a re-analysis of the deposited data

Results flagged for a closer look

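The difference in IP effect between the lines was itself tested with edgeR, and it singled out 1630 genes higher in Tet1 and 632 higher in Tet2. The fitted differences (Tet1 minus Tet2, log2) of the transcripts with the widest gaps follow. On the Tet1 side they were 1.42 for Fam92a, 1.34 for Rpl7, 1.29 for Ube2l6, 1.47 for D7Ertd715e, 1.20 for Ttc35 and 1.17 for Akap12. They were 1.20 for Bcap29, 1.22 for Gm20362, 1.13 for Dram2, 1.13 for Ube2v2, 1.14 for Apool and 1.15 for Rg9mtd1. On the Tet2 side they were -1.43 for Txndc5, -1.39 for Fam160b2, -1.19 for Atp6v1e1, -1.27 for Dbn1, -1.05 for Eif4e2 and -1.15 for Tubb3. They were -1.10 for Maea, -1.22 for Sec22b, -1.06 for Akr1a1, -1.01 for Eif4ebp1, -1.02 for Ssna1 and -0.91 for Klf2. Each lay on one side of 0 in all 13 alternatives, and none passed an adjusted p of 0.05 with all 20 libraries. The transcripts were picked from the same 8 libraries as called ones with the widest gap. Most alternatives refit those libraries, so the constant direction was largely fixed in advance.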

How the results depend on the processing

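The count of 2262 genes was 837 with DESeq2 (591 higher in Tet1 and 246 in Tet2), 1043 with no replicate block (824 and 219), 337 with 12 libraries (244 and 93), 876 with limma on log2(TPM + 1) (418 higher in Tet1) and 500 with limma on log2(TPM + 0.1) (252 and 248). It was 0 with all 20 libraries (0 and 0). Library totals gave 1099 higher in Tet2. Leaving out each pair in turn gave 1421 to 2925 genes, with 1093 to 1543 higher in Tet1 and 291 to 1382 in Tet2. The total was lowest without Tet2 replicate 3 (328 in Tet2) and highest without Tet1 replicate 1 (1382 in Tet2), and the fewest in Tet2 were without Tet2 replicate 4 (291). IP and input of the same number deviated together only weakly (r = 0.20 for Tet1 and -0.01 for Tet2), so the numbers alone pair them, and all 1043 genes called with no replicate block were among the 2262.

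Separated transcripts numbered 181 at a gap of at least 0.5 (111 with Tet1 above and 70 below). Those with Tet1 above became 2790 after centring on the median, and those with Tet1 below became 2153 after centring within GC bins. Without one pair they ranged from 6665 to 7098 in all, 2081 to 2795 above and 3929 to 4882 below. Leaving out a pair makes the rule easier to meet, so a higher count of separated transcripts was built in. The other alternatives of this count, and those of the pair medians (-0.118 to -0.0468 without one pair) and of the IP (6388 to 8322) and input (5960 to 7857) levels, stayed within 1.5 times or 1 SD.

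Signs were followed only for the 12 transcripts with the widest gap in each direction, the Tet genes and the transcripts the study names. Among these, none of the sign changes was in a called gene. Smarcc1 went from 0.02 to -0.014 (DESeq2), -0.014 (RLE), -0.0439 (library totals), -0.0225 (no filter), -0.0277 (20 libraries), -0.069 and -0.0727 (limma, TPM + 1 and TPM + 0.1) and, without one pair, -0.0528 (without Tet1 replicate 1) to 0.0365. Mdc1 went to -0.0162 (library totals), -0.000612 (20 libraries), -0.0526 and -0.0468 (limma) and -0.0264 (without Tet2 replicate 4) to 0.117 without one pair. Paf1 went to -0.0167 and -0.0132 (limma) and -0.0425 (without Tet1 replicate 1) to 0.151, Mbd3 to -0.0271 and -0.0274 (limma), Cdh4 to 0.0427 (without Tet1 replicate 1; -0.815 at the other end of the range without one pair) and Tet3 to 0.0339 (without Tet2 replicate 3; -0.424 at the other end). Fam92a, Apool and Rg9mtd1 did not pass with 12 libraries. The cause was not tested in any case. Depth limits only rare transcripts.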
